A study of Mesocricetus auratus with 24 samples.

Results

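The NR4A genes Nr4a1, Nr4a2 and Nr4a3 encode a small family of orphan nuclear receptors, and their transcripts were followed through the inferior colliculus (IC) of seizure-prone and control hamsters. Members were taken as the genes of these names in the platform's annotation. All 3 were found, each read by 1 probe set, among the 19938 genes with a probe set of their own. The series held 24 arrays, 6 in each of 4 groups: stimulated GASH/Sal, naïve GASH/Sal, stimulated Syrian and naïve Syrian. All animals were hamsters 16 weeks old. GASH/Sal is a hamster strain in which loud sound triggers generalised seizures. It is a single line, so susceptibility and other traits of the line cannot be told apart, and the Syrian hamsters were its controls. Stimulated animals heard the sound, and the labels place the collection of the IC 60 min after the seizures. The characteristics of the naïve arrays list no exposure, and the groups follow them, although a protocol text common to all samples has controls receive the sound as well. In stimulated GASH/Sal the sound and any seizure came together, so the parts of each in a difference cannot be told apart.

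NR4A receptors have no established natural ligand, because the pocket that would hold one is filled by the receptor's own side chains, and their activity is thought to follow largely from how much protein is made and how it is modified. They bind DNA as monomers or as pairs, and Nr4a1 and Nr4a2 can also pair with retinoid X receptors. In rodent neurons they belong to the immediate-early genes, which are transcribed within minutes of calcium or cyclic AMP signals without new protein synthesis, through factors such as CREB, MEF2 and SRF. Seizures are a known strong inducer of the family in the forebrain. Nr4a2 has a further role as the factor that midbrain dopaminergic neurons need to form and to keep their identity.

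The arrays carry mouse probes and were hybridised with hamster RNA, and a gene's signal was set only against its own signal on other arrays. Values are log2 signals, on which a difference of 1 is a doubling. The mean signal of Nr4a1 lay at percentile 67.6 of all genes tested, that of Nr4a3 at percentile 49.7 and that of Nr4a2 at percentile 40.6, so Nr4a2 and Nr4a3 were read from dim probe sets. The array medians lay between 4.50 and 4.65, and pairs of arrays correlated at 0.965 to 0.993 across genes. Stimulated Syrian 4 and naïve GASH/Sal 6 correlated least with the others, at a mean of 0.969 and 0.971. The animals are named in 2 styles, called label series A (replicates 1 to 3 of every group) and B (replicates 4 to 6), and the series entered the fit as a term. The fixed markers of neurons (5 of 5) and of IC and midbrain tectum (8 of 8) had signals above the median gene. So had 4 of 5 astrocyte, 4 of 4 oligodendrocyte, 2 of 4 cerebellum and 2 of 3 telencephalon markers. These counts alone therefore do not set the IC apart from other tissue. Bulk tissue was measured, so fewer cells of a type and less RNA per cell cannot be told apart.

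Sound was followed by higher signals of Nr4a1 and Nr4a3 in both strains, while the mean of Nr4a2 differed from that of the naïve animals by less than the SD of either group. None of the members passed the adjusted threshold of 0.05 over all genes in either strain or in both together. The sizes lay between 1.18-fold and 1.34-fold for Nr4a1 and Nr4a3, and the signals of single arrays show how the groups overlapped.

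**Figure D1:**
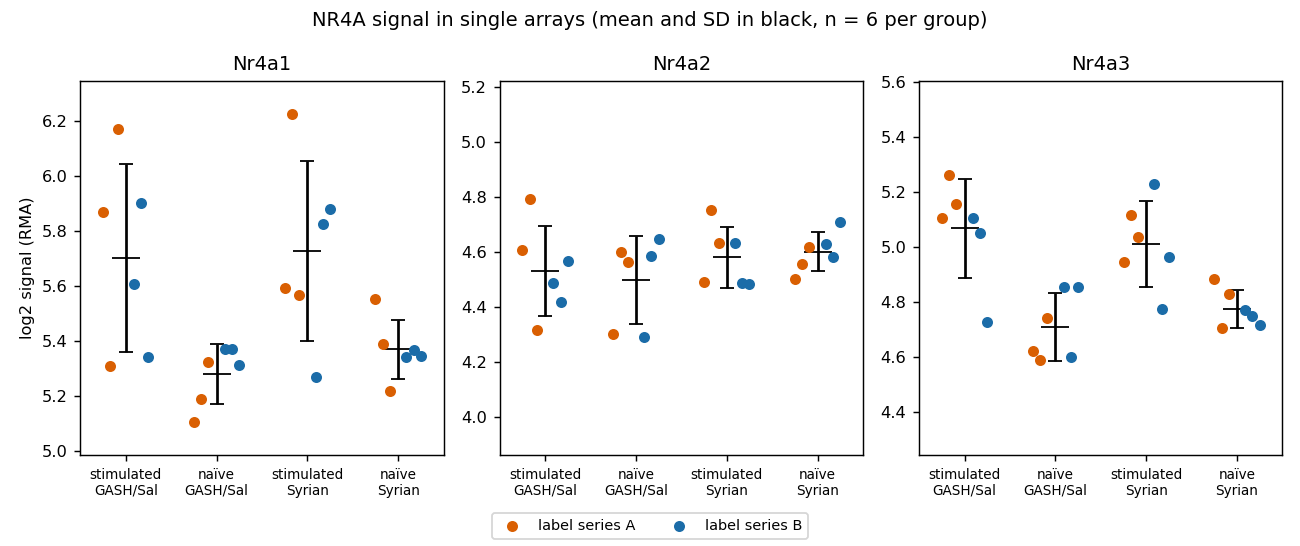
Log2 signal of Nr4a1, Nr4a2 and Nr4a3 (y axis) in each of the 24 arrays by group (x axis), coloured by label series, with the group mean and SD in black (n = 6 per group). Stimulated arrays of Nr4a1 spread from inside a tight naïve cluster to well above it. Those of Nr4a3 sit mostly above their naïve groups, and the 4 groups of Nr4a2 overlap.

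Nr4a1 (Nur77, probe set 10427035) is an immediate-early gene induced by growth factors and, in neurons, by electrical activity. In stimulated GASH/Sal animals its lowest, median and highest signals were 5.31, 5.74 and 6.17, against 5.11, 5.32 and 5.37 in naïve GASH/Sal. All 6 stimulated arrays lay above the naïve mean and 4 of them above every naïve array, while stimulated GASH/Sal 2 and 6 fell inside the naïve range. The means were 5.70 ± 0.341 in stimulated and 5.28 ± 0.108 in naïve animals (SD, n = 6 each), a log2 difference of 0.42 (95% interval 0.16 to 0.68) or 1.34-fold. The limma fit over all genes gave an adjusted p of 0.999.

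In stimulated Syrian animals the lowest, median and highest Nr4a1 signals were 5.27, 5.71 and 6.23, against 5.22, 5.36 and 5.55 in naïve Syrian. Of the stimulated arrays, 5 of 6 were above every naïve array, and the other, stimulated Syrian 4, lay below the naïve mean. The means were 5.73 ± 0.327 in stimulated and 5.37 ± 0.108 in naïve animals (SD, n = 6 each). The log2 difference was 0.36 (95% interval 0.10 to 0.62), or 1.28-fold, with a limma adjusted p of 0.719. With both strains together, 9 of 12 stimulated arrays were above all 12 naïve arrays. That comparison gave a log2 difference of 0.39 (SE 0.0908, 95% interval 0.20 to 0.58), or 1.31-fold, with a limma adjusted p of 0.170.

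Nr4a3 (NOR-1, probe set 10504838) is likewise an immediate-early gene of neurons. Its lowest, median and highest signals were 4.73, 5.11 and 5.26 in stimulated GASH/Sal, against 4.59, 4.68 and 4.85 in naïve GASH/Sal. The groups overlapped through 1 stimulated array, stimulated GASH/Sal 6, and the other 5 were above every naïve array. The means were 5.07 ± 0.181 in stimulated and 4.71 ± 0.124 in naïve animals (SD, n = 6 each). The log2 difference was 0.36 (95% interval 0.19 to 0.53), or 1.28-fold, and by its p-value Nr4a3 ranked 3 among the 19938 genes, yet its limma adjusted p was 0.993.

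In stimulated Syrian animals Nr4a3 had a lowest, median and highest signal of 4.77, 5.0 and 5.23, against 4.70, 4.76 and 4.88 in naïve Syrian. Again 5 of 6 stimulated arrays were above every naïve array, and stimulated Syrian 5 was the exception. The means were 5.01 ± 0.155 in stimulated and 4.77 ± 0.0688 in naïve animals (SD, n = 6 each). The log2 difference was 0.24 (95% interval 0.06 to 0.41), or 1.18-fold, with a limma adjusted p of 0.719. In both strains together, 10 of 12 stimulated arrays were above all naïve arrays. The log2 difference was then 0.30 (SE 0.0592, 95% interval 0.18 to 0.42), or 1.23-fold, with rank 4 by p-value and a limma adjusted p of 0.114.

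Nr4a2 (Nurr1, probe set 10482772) showed no separation. Its lowest, median and highest signals were 4.32, 4.53 and 4.79 in stimulated GASH/Sal, against 4.29, 4.57 and 4.65 in naïve GASH/Sal. In Syrian animals they were 4.49, 4.56 and 4.75 after sound, against 4.50, 4.60 and 4.71 in naïve Syrian. In each strain 3 of 6 stimulated arrays were above the naïve mean and 1 was above every naïve array, and in Syrian 3 of 6 lay below every naïve array. The log2 difference was 0.03 in GASH/Sal (95% interval -0.13 to 0.20), -0.02 in Syrian (95% interval -0.19 to 0.15) and 0.01 in both strains together (SE 0.0580, 95% interval -0.11 to 0.12). The interval for both strains leaves out a difference of the size measured for Nr4a1 or Nr4a3, but the probe set was the dimmest of the 3, and whether it read above background was not tested.

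Read against all genes, Nr4a1 and Nr4a3 stood among the smaller share with a nominal difference. In GASH/Sal, 2 of 3 members were higher with an unadjusted p under 0.05, against 2.88% of all genes, and the adjusted threshold was passed by 0% of genes. In Syrian animals it was 2 of 3 members, against 4.35% of all genes, with 0% past the adjusted threshold. In both strains together it was again 2 of 3, against 5.22%. There 0.00502% of genes passed the adjusted threshold, which was 1 gene, the immediate-early factor Fos with a log2 difference of 0.58 (SE 0.0839, limma adjusted p = 0.00222). The median difference of the members was 0.36 in GASH/Sal, 0.24 in Syrian and 0.30 in both, and the median over all genes was 0.013, 0.019 and 0.015 in the same order.

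**Figure D2:**
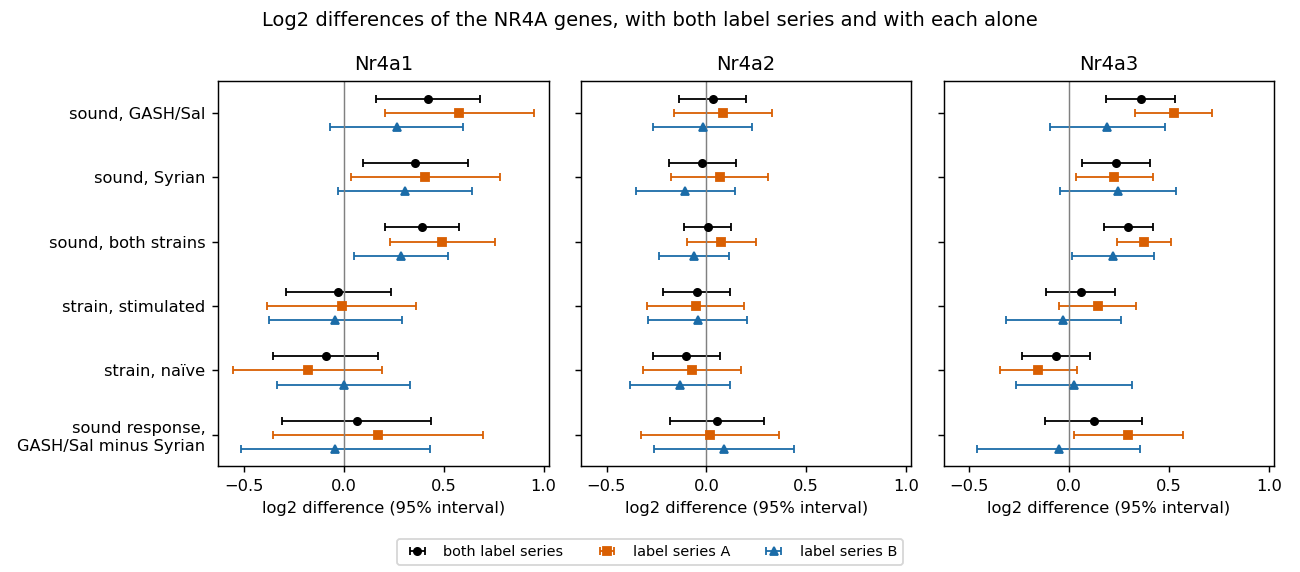
Log2 differences with 95% intervals (x axis) of the 3 NR4A genes in 6 contrasts (y axis), from both label series (black circles), series A (orange squares) and series B (blue triangles). The points of Nr4a1 and Nr4a3 after sound lie right of 0, but their series B intervals hold 0 within each strain, and the strain intervals from both series together hold 0.

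The members were set against each other within each array, which cancels what all genes of an array share. The log2 ratio of Nr4a1 to Nr4a2 was higher by 0.38 in stimulated than in naïve animals (two-sided exact permutation test within strain and label series, p = 0.00799). That of Nr4a3 to Nr4a2 was higher by 0.29 (exact p = 0.00126). That of Nr4a1 to Nr4a3 was higher by 0.09 (exact p = 0.429), so no difference between these members was detectable. The 3 pairs were each positive in all 4 combinations of strain and label series. These 3 p-values are unadjusted, and 160000 arrangements allow a smallest p of 1.25e-05. The ratios show unequal differences within the arrays and not levels. As the difference of Nr4a2 itself was near 0 on a dim probe set, the ratios to Nr4a2 largely restate the differences of Nr4a1 and Nr4a3.

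The measured response differed in size between the label series, although that gap was not tested. In series A alone, the GASH/Sal difference was 0.58 for Nr4a1 and 0.52 for Nr4a3, against 0.27 and 0.19 in series B. Nr4a3 passed the adjusted threshold in series A (limma adjusted p = 0.0454), as did 0.0351% of all genes. In Syrian animals the difference of Nr4a1 was 0.41 in series A and 0.31 in series B, and that of Nr4a3 was 0.23 in series A and 0.24 in series B. With both strains together, series A called both Nr4a1 at 0.49 (limma adjusted p = 0.0450) and Nr4a3 at 0.38 (limma adjusted p = 0.00869), where 444 genes or 2.23% of all genes were called. Series B called neither, at 0.29 for Nr4a1 and 0.22 for Nr4a3. Within each strain the series B intervals held 0, from -0.07 to 0.60 for Nr4a1 and -0.10 to 0.48 for Nr4a3 in GASH/Sal, and from -0.03 to 0.64 and -0.05 to 0.53 in Syrian. Each series holds 3 arrays per group, and the sources used here do not say what divides the series. Without stimulated Syrian 4 and naïve GASH/Sal 6, the differences in both strains together were 0.44 for Nr4a1, 0.02 for Nr4a2 and 0.29 for Nr4a3.

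The strains did not differ detectably in any member. In stimulated animals the GASH/Sal minus Syrian difference was -0.03 for Nr4a1 (95% interval -0.29 to 0.24), -0.05 for Nr4a2 (-0.22 to 0.12) and 0.06 for Nr4a3 (-0.11 to 0.23). In naïve animals it was -0.09 for Nr4a1 (95% interval -0.35 to 0.17), -0.10 for Nr4a2 (-0.27 to 0.07) and -0.07 for Nr4a3 (-0.24 to 0.11). Over both sound conditions the differences were -0.06, -0.08 and 0.00 for Nr4a1, Nr4a2 and Nr4a3, with intervals that all held 0. Of the members, 0 of 3 had an unadjusted p under 0.05 in these contrasts, against 5.42% of all genes after sound, 6.02% in naïve animals and 7.99% over both. At the adjusted threshold the shares of all genes were 0%, 0% and 0.01%.

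Whether the sound response itself differed between the strains was tested as an interaction. The response was larger in GASH/Sal by 0.06 for Nr4a1 (95% interval -0.31 to 0.44), by 0.05 for Nr4a2 (-0.18 to 0.29) and by 0.12 for Nr4a3 (-0.12 to 0.36). None of the 3 had an unadjusted p under 0.05, against 3.68% of all genes, and 0% of genes passed the adjusted threshold. The interaction was 0.17 for Nr4a1 and 0.30 for Nr4a3 in label series A alone, and -0.04 and -0.05 in label series B alone, so its direction turned between the series. The intervals are wide, since a gap of up to 0.44 in the response of Nr4a1 fits within them.

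The spread between the animals of a group differed between members and between stimulated and naïve arrays. Within groups, Nr4a1 had an SD of 0.334 in stimulated and 0.108 in naïve arrays. The ratio of 3.09 placed it at percentile 99.6 of all genes, for which the median ratio was 1.03. Nr4a3 had an SD of 0.169 in stimulated and 0.10 in naïve arrays, a ratio of 1.68 at percentile 89.0. Nr4a2 had 0.140 in stimulated and 0.123 in naïve arrays, a ratio of 1.14 at percentile 60.2. For comparison, Fos had 0.289 in stimulated and 0.147 in naïve arrays, a ratio of 1.97 at percentile 94.6. The wider spread of Nr4a1 after sound was present in both strains. Stimulated Syrian 4, the array least correlated with the others, was the lowest of its group for Nr4a1 and the highest for Nr4a3. Without it and naïve GASH/Sal 6 the ratio was 2.69 for Nr4a1 (percentile 99.3), 1.66 for Nr4a3 and 1.18 for Nr4a2. These ratios are descriptions with no test.

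No joint variation of Nr4a1 and Nr4a3 between animals was detectable. Their deviations from the mean of each group and label series had a Pearson r of -0.05 over 24 arrays (permutation p = 0.860) and a Spearman rho of -0.01 (permutation p = 0.962). Within label series A that r was 0.11, and within series B it was -0.17. In stimulated GASH/Sal 2, Nr4a1 was the lowest of its group at 5.31, while Nr4a3 at 5.26 and Nr4a2 at 4.79 were the highest of theirs. Nr4a1 and Nr4a2 had an r of -0.37 (permutation p = 0.229) and a rho of -0.35 (permutation p = 0.177). Nr4a3 and Nr4a2 had an r of 0.11 (permutation p = 0.609) and a rho of 0.13 (permutation p = 0.595). Of the 6 values computed, none was under 0.05 after adjustment (lowest adjusted permutation p = 0.688). Without the 2 arrays farthest out, r was -0.05 for Nr4a1 and Nr4a3, -0.41 for Nr4a1 and Nr4a2, and 0.12 for Nr4a3 and Nr4a2.

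**Figure D3:**
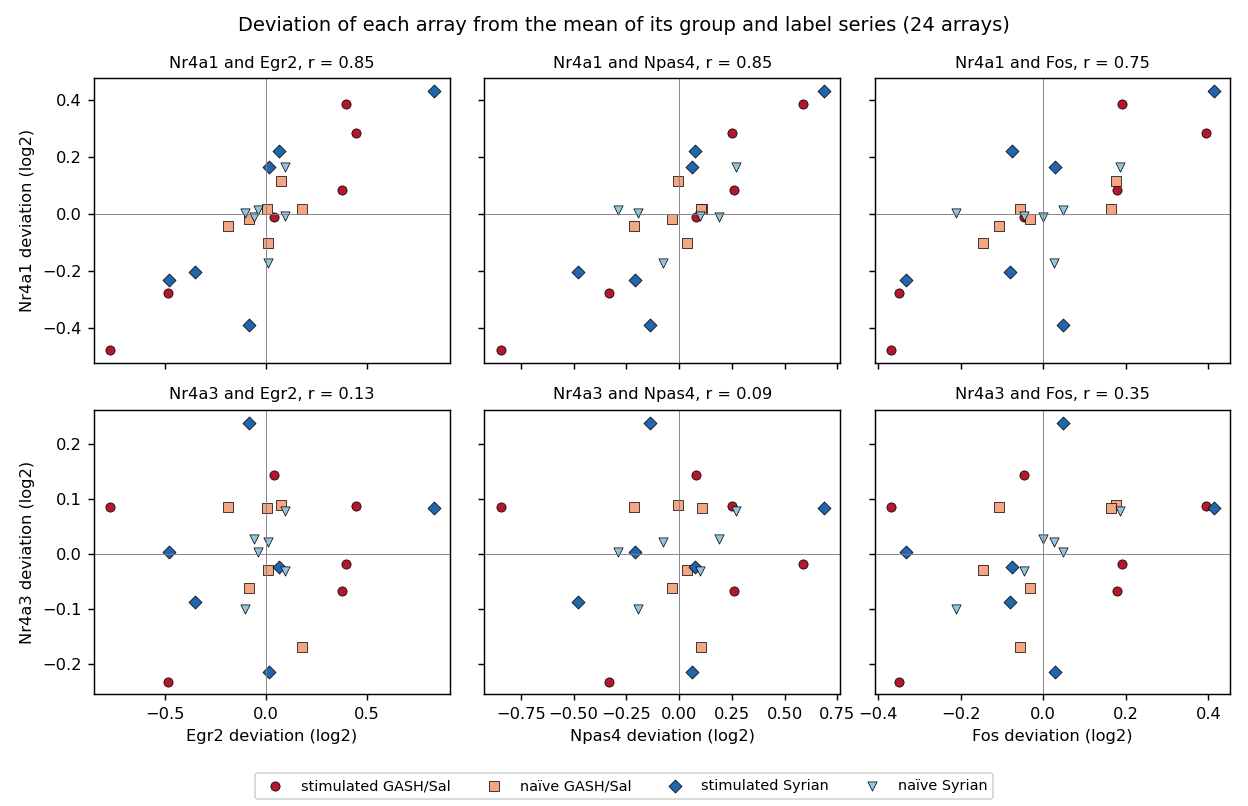
Deviation of each of the 24 arrays from the mean of its group and label series (log2, both axes), with Nr4a1 in the upper and Nr4a3 in the lower panels set against Egr2, Npas4 and Fos. Nr4a1 follows the 3 genes along a diagonal that the stimulated arrays span (r between 0.75 and 0.85), and the points of Nr4a3 scatter (r between 0.09 and 0.35).

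Each member was most like a different set of genes. Among 9968 genes with a mean signal at or above the median, the 3 whose deviations followed Nr4a1 most closely were the activity-induced transcription factors Egr2 (r = 0.854), Npas4 (r = 0.846) and Fos (r = 0.751). In stimulated arrays r was 0.886 for Egr2, 0.903 for Npas4 and 0.788 for Fos, against 0.346, 0.367 and 0.567 in naïve arrays (12 each). The genes were picked on all arrays and Nr4a1 spread more widely in stimulated ones, so no difference in likeness is read from this. Without stimulated GASH/Sal 2 and stimulated Syrian 2 the values over the remaining arrays were 0.761, 0.746 and 0.626. Label series A gave an r of 0.92 with Egr2, 0.94 with Npas4 and 0.88 with Fos, and label series B gave 0.71, 0.62 and 0.51. All these genes were read from the same 24 arrays and share their quality and animal.

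The same factors were not among the closest for Nr4a3, with an r of 0.349 for Fos (rank 2013 of 9968), 0.134 for Egr2 and 0.0904 for Npas4. For Fos that r was 0.268 in stimulated and 0.642 in naïve arrays (12 each). In the signals as deposited, where both genes carry the difference of the groups, Nr4a3 and Fos correlated at 0.767. The genes most like Nr4a3 were Nelfcd, a subunit of the negative elongation factor that pauses RNA polymerase (r = 0.834), Chmp2a, a subunit of the membrane-remodelling ESCRT complex (r = 0.824), and Pdgfa, a growth factor for oligodendrocyte precursors (r = 0.822). For Nr4a2 they were 1110065P20Rik (r = 0.800), Gsg1l2 (r = 0.783) and Baiap2l2 (r = 0.754), and Fos had an r of -0.258 (rank 7991). The members of these last 2 sets had differences after sound between -0.08 and 0.08 in both strains together. The values are descriptions of the closest of many genes and carry no test. For the sets of Nr4a3 and Nr4a2 they were not repeated without the arrays farthest out. For Nr4a3 those arrays include stimulated Syrian 4, the array least correlated with the others. In the signals as deposited, Nelfcd, Chmp2a and Pdgfa correlated with Nr4a3 at 0.595, 0.530 and 0.338.

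**Figure D4:**
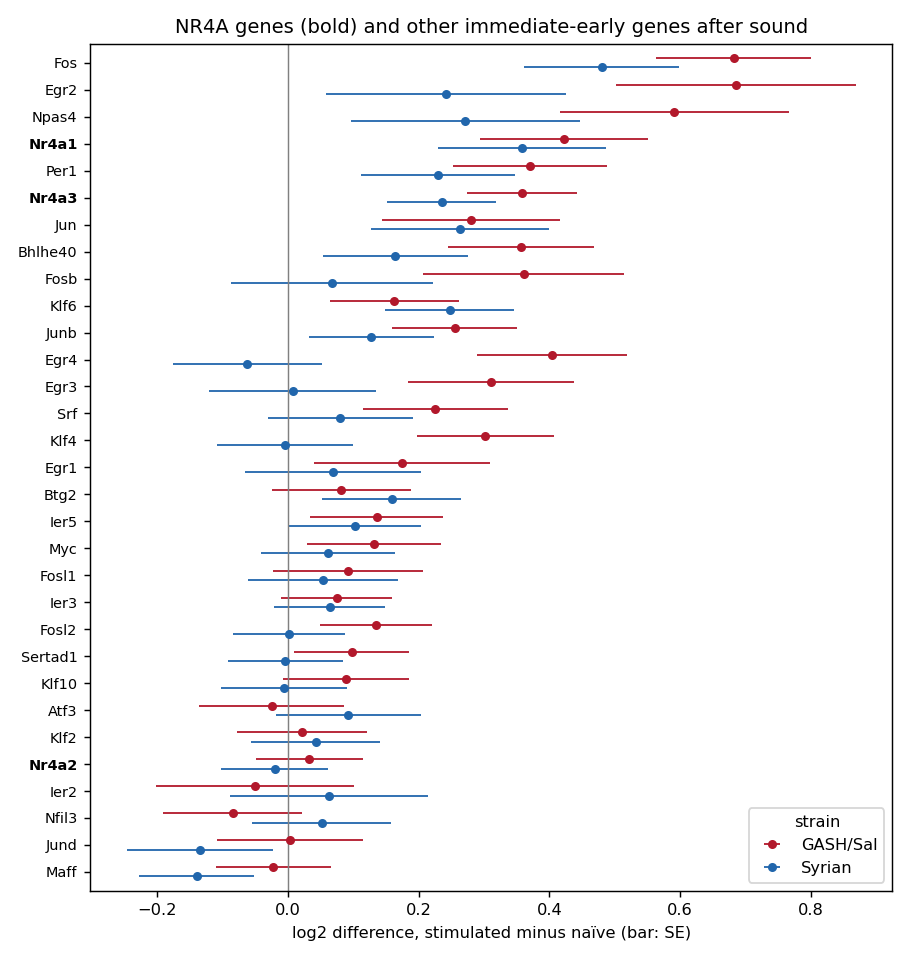
Log2 difference between stimulated and naïve animals (x axis, point and SE) in GASH/Sal (red) and Syrian (blue) for the NR4A genes (bold) and 28 other immediate-early genes, ordered by the difference in both strains together. Nr4a1 and Nr4a3 stand near the top beside Fos, Egr2, Npas4 and Per1, and Nr4a2 stands near the bottom.

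Beside the family, 28 other genes were listed as immediate-early, most of them transcription factors, and all were tested. Srf also stands in the list of upstream genes given below. In GASH/Sal, 24 of 28 were above 0 with a median of 0.15, and 11 were higher and 0 lower with an unadjusted p under 0.05, where all genes had a median of 0.013 and 2.88% were higher. In Syrian animals 22 of 28 were above 0 with a median of 0.07, and 2 were higher and 0 lower, beside 0.019 and 4.35% for all genes. In both strains together 25 were above 0 with a median of 0.12, and 9 were higher and 0 lower with an unadjusted p under 0.05, beside 0.015 and 5.22% for all genes. There Fos alone passed the adjusted threshold. Fos lay at 6.69 ± 0.317 in stimulated and 6.01 ± 0.142 in naïve GASH/Sal, and at 6.51 ± 0.257 in stimulated and 6.03 ± 0.151 in naïve Syrian (SD, n = 6 each). Egr2 differed by 0.69 in GASH/Sal (SE 0.184) and 0.24 in Syrian (SE 0.184), and Npas4 by 0.59 (SE 0.175) and 0.27 (SE 0.175). The difference between the strains' responses was 0.44 for Egr2 (95% interval -0.09 to 0.97) and 0.32 for Npas4 (95% interval -0.19 to 0.83), beside 0.06 for Nr4a1 and 0.12 for Nr4a3, and every one of these intervals held 0. For that difference 22 of the 28 were above 0, as were 49.0% of all genes, with a median of 0.11 beside -0.003. There 2 were higher and 0 lower with an unadjusted p under 0.05, where 3.68% of all genes passed in either direction. None passed the adjusted threshold.

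The kinases, phosphatases and factors of the pathways upstream of NR4A transcription had small differences. Of 31 listed genes 24 were tested. Not all of these are activators, since Hdac4, Hdac5 and Prkar1a can hold such signals back, so the counts mix both kinds. In both strains together 19 were above 0, as were 58.3% of all genes, with a median of 0.04 beside 0.015. None had an unadjusted p under 0.05, where 5.22% of all genes were higher and 2.17% lower. In GASH/Sal 1 of the 24 was higher and 0 were lower at that threshold, beside 2.88% and 1.58% of all genes. The largest differences in both strains together were those of Rps6ka3, a kinase that phosphorylates CREB, at 0.19 (SE 0.134), and Srf, the serum response factor, at 0.15 (SE 0.0782). Of 17 dimer partners and co-regulators 14 were tested, with a median of 0.01, and 0 were higher and 1 lower with an unadjusted p under 0.05, against 5.22% and 2.17% of all genes. That was Trim28, a transcriptional co-regulator, at -0.10 (SE 0.0480, limma adjusted p = 0.655). Hdac3, a histone deacetylase of repressor complexes, stood at 0.13 (SE 0.0688).

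Genes known as NR4A targets were found on both sides of 0 after sound. Of 14 listed 13 were tested, 8 were above 0 in both strains together with a median of 0.03, and 2 were higher and 1 lower with an unadjusted p under 0.05, beside 5.22% and 2.17% of all genes. In GASH/Sal 7 of the 13 were above 0, and 1 was higher and 3 were lower, beside 2.88% and 1.58% of all genes. Pomc, the precursor of adrenocorticotropic hormone and a known target of Nr4a1 in pituitary cells, stood at -0.21 (SE 0.0628, limma adjusted p = 0.425). Aldh1a1, a retinaldehyde dehydrogenase of dopaminergic neurons, stood at 0.16 (SE 0.0776, limma adjusted p = 0.666). Bdnf, a neurotrophin, was the other that was higher, at 0.11 (SE 0.0478). In GASH/Sal alone it was 0.21 (SE 0.0676) and was the 1 gene higher there. The 3 lower there were Th, the rate-limiting enzyme of dopamine synthesis and a target of Nr4a2, at -0.20 (SE 0.0807), Pomc at -0.19 (SE 0.0888) and Vip, a neuropeptide, at -0.17 (SE 0.0781).

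Other nuclear receptors had differences near those of all genes. Of 45 listed 41 were tested, and in both strains together 25 were above 0 with a median of 0.016, beside 0.015 over all genes. An unadjusted p under 0.05 was reached by 2 that were higher and 0 that were lower, beside 5.22% and 2.17% of all genes. These were Nr1d2, a repressor of the circadian clock, at 0.15 (SE 0.0671) and Esr2, an oestrogen receptor, at 0.14 (SE 0.0676). Both had differences under that of Nr4a1 at 0.39 and of Nr4a3 at 0.30.

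Markers of other cells were set beside these results. The 8 markers of dopaminergic and other monoaminergic neurons, which can hold Nr4a2, had a mean signal of 4.52 to 4.72 in stimulated and 4.53 to 4.70 in naïve GASH/Sal. It was 4.56 to 4.86 in stimulated and 4.61 to 4.71 in naïve Syrian, and 3 of the 8 were above the median gene. Of these 8, 5 were above 0 after sound in both strains together and none had an unadjusted p under 0.05. Of all genes 58.3% were above 0 there, and 5.22% were higher and 2.17% lower with an unadjusted p under 0.05. In GASH/Sal alone 0 of the 8 were higher and 1, Th, was lower at that threshold, beside 2.88% and 1.58% of all genes. Of the neuron markers 2 of 5 were above 0 after sound in both strains together, with 0 higher and 1 lower at an unadjusted p under 0.05, and of the IC and midbrain tectum markers 4 of 8, with 1 higher and 0 lower. The 4 tested oligodendrocyte markers were all above 0, as were 58.3% of all genes, and 3 of them were higher with an unadjusted p under 0.05, as were 5.22% of all genes, namely Mbp at 0.10, Mog at 0.13 and Mobp at 0.18, and none passed the adjusted threshold. Their mean signal ran from 6.06 to 6.19 in stimulated and 5.83 to 6.12 in naïve GASH/Sal, and from 5.94 to 6.26 in stimulated and 5.83 to 6.09 in naïve Syrian. Their part in the differences of Nr4a1 and Nr4a3 was not tested.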

How the data were processed

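RNA from 24 hamster ICs was read on mouse whole-transcript arrays. The authors deposited log2 probe set signals after RMA, which corrects background, normalises between arrays and summarises probes. The submitters' processing notes name RMA without a version. Of 35556 probe sets, 21789 carried 1 gene symbol, and the one with the highest mean was kept per gene (19938 genes). Arrays give no read depth, so their number limits the precision. limma (version 3.58.1, R version 4.3.3) fitted the 4 groups and the label series to all 24 arrays (19 residual degrees of freedom), with 7 contrasts and Benjamini-Hochberg adjustment over all genes. The script was tested on simulated data. The labels call the arrays biological replicates.

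The members, lists and tests were chosen with earlier results of these data known. Named were the members, Fos, the 3 genes most like each member, and per list the called genes or at most 2 with the largest difference in both strains. Mentioned besides for their values were Bdnf, Th, Vip and the oligodendrocyte markers. Every sample column of the table was used (0 set aside). Pairs of members were compared by exact permutation, and correlations by 100000 random permutations within group and label series.

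Alternatives were fits without the label series, with a replicate block or in each series alone, a filter on dim genes, every probe set, quantile normalisation or median centring, array weights, limma's trend and robust options, and leaving out each array. Leaving out the 2 least correlated arrays, in the fits and the spread, was added after seeing the data. The planned search for promoter motifs was not run.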

Additional observations from a re-analysis of the deposited data

How the results depend on the processing

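The higher signals of Nr4a1 and Nr4a3 after sound kept their direction under every alternative run, but some alternatives called them. In both strains together, array weights called 14 of 19938 genes, among them Nr4a1 at 0.44 (limma adjusted p = 0.0287) and Nr4a3 at 0.29 (limma adjusted p = 0.0212). Label series A called 444, among them Nr4a1 at 0.49 and Nr4a3 at 0.38. Nr4a3 at 0.52 was also among 7 genes called in GASH/Sal in series A. With 1 array left out at a time, Nr4a3 lay between 0.27 and 0.33 and was called only without stimulated GASH/Sal 6 (0.33, limma adjusted p = 0.0179), with 12 genes called in all, and Nr4a1 lay between 0.34 and 0.44 and was never called.

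Values near 0 changed sign, and the cause was not tested. Nr4a2 after sound was -0.019 in GASH/Sal in series B, 0.066 in Syrian in series A, and in both strains -0.063 in series B, -0.0038 after median centring and -0.0066 after quantile normalisation. With 1 array left out it ran from -0.020 to 0.079 in GASH/Sal, -0.055 to 0.0049 in Syrian and -0.020 to 0.030 in both. In series B the strain difference of Nr4a3 was -0.028 in stimulated and 0.023 in naïve animals, and the interaction was -0.041 for Nr4a1 and -0.052 for Nr4a3. Without the 2 least correlated arrays the interaction of Nr4a1 was -0.019. Over both sound conditions, the strain difference of Nr4a3 was 0.017 after median centring, 0.013 after quantile normalisation, 0.0034 without the 2 arrays and -0.026 to 0.029 with 1 array left out. With 1 array left out, the interaction ran from -0.030 to 0.16 for Nr4a1 and -0.00013 to 0.10 for Nr4a2, and the strain difference of Nr4a1 in stimulated animals from -0.12 to 0.074. Nr4a1 and Nr4a3 correlated at r = 0.54 in the signals as deposited, where both carry the difference of the groups.

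Counts of genes past the threshold were small and moved. After sound in GASH/Sal they were, besides the 7 in series A, 1 each with the dim filter, with trend and robust and with array weights, and 0 to 1 with 1 array left out. In Syrian they were 5 in series A. In both strains they were, besides the counts above, 0 in series B, 2 without the 2 arrays, and 1 to 12 with 1 array left out. For strain in naïve animals they were 2 with the dim filter, 2 with median centring, 18 with array weights, 64 without the 2 arrays and 0 to 13 with 1 array left out. For strain over both sound conditions they were 0 without the label series, with a replicate block, in either series and with every probe set, 19 with array weights, 36 without the 2 arrays and 0 to 36 with 1 array left out. The dim filter left out Nr4a2 and Nr4a3.

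Equal replicate numbers were not taken to pair the animals. Deviations correlated over 0.1 in 12 of 36 such pairs of arrays (-0.16 to 0.32), and in 2 of 36 once the label series was removed (-0.21 to 0.12). Arrays of unequal number were not set beside them, so these counts cannot decide whether the numbers pair animals. With the replicate block Nr4a1 was 0.39 and Nr4a3 was 0.30 after sound in both strains (limma adjusted p = 0.276 and 0.108), and no call of a member changed.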
